A study of Mus musculus with 27 samples.

Results

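Tubulin isotypes are the products of separate alpha-tubulin and beta-tubulin genes, and 10 of them were followed here through adult neurogenesis of the mouse: 3 alpha isotypes (Tuba1a, Tuba1b and Tuba4a) and 7 beta isotypes (Tubb2a, Tubb2b, Tubb3, Tubb4a, Tubb4b, Tubb5 and Tubb6). They were chosen by symbol, as the rows of the raw count table whose Ensembl identifier maps to these 10 names, out of 45195 genes in all. Each of the 10 matched 1 row and passed the filter on low counts in all 14 comparisons. The series profiles 4 stages in male C57BL/6-background mice of 8 to 12 weeks: stem cells (NSC) and their early neuroblast progeny (ENB), both from the subventricular zone (SVZ), then late neuroblasts (LNB) and neurons (Neuron), both from the olfactory bulb (OB). All HA-tagged mice carried Rpl22.HA (RiboTag, an epitope tag on a ribosomal protein) and eYFP. Both were switched on by CreER under the Tlx promoter (TiCRY) or the Dcx promoter (DiCRY) after tamoxifen at 200 mg/kg. Which line gave which library is not listed here, and the part of the line in the differences between stages was not tested. Total mRNA was made from small pools of sorted eYFP+ cells of 1 to 2 mice, with 3 libraries for each stage. For ribosome-bound mRNA, unsorted tissue homogenate was immunoprecipitated with anti-HA, giving 3 LNB libraries and 2 of each other stage. The controls were immunoprecipitations from tissue without HA, 3 from the SVZ and 3 from the OB, and the descriptions of some SVZ controls read Cre-. Codes in the descriptions read 4d for the NSC immunoprecipitates, 3dp or 3dpi for those of ENB and LNB, and 4wpi for both kinds of Neuron library.

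Alpha- and beta-tubulin form the heterodimer from which microtubules are built, and every cell draws its pool from several near-identical isotypes. In textbook terms Tubb3, the antigen of the Tuj1 antibody, and the Tubb2 pair are the beta isotypes of young neurons, Tuba1a is the main alpha isotype of migrating neurons, Tubb5 is abundant in neural progenitors, and Tubb4a is rich in the mature brain, above all in oligodendrocytes. Tubulin mRNA is also controlled after transcription: excess soluble tubulin triggers decay of tubulin mRNAs that are being translated, a feedback in which Ttc5 recognises the nascent peptide.

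The isotypes are similar in sequence, and how the raw counts treat reads that match several of them is not given in the sources used here, so values of single isotypes are uncertain to that extent. The library totals of the deposited expected counts were a median 1.82 times those of the raw counts (1.62 to 2.5 over 27 libraries). For Tubb5 and Tubb4a the same ratio was 1.76 and 1.82, but for Tuba1b it was 3.86, for Tuba1a 2.64, for Tubb2a 2.29 and for Tubb2b 2.25. Raw counts thus put Tuba1a, Tuba1b and the Tubb2 pair lower, relative to Tubb5, than the estimates do, and levels are compared between genes below only as TPM, the deposited unit corrected for length. Tuba1c, a close relative of Tuba1a and Tuba1b, held a median of 64 raw counts and 45.88 expected counts. At the low end the estimates and the counts parted further, and the ratio went down to 0.13 for Tuba4a and to 0 for Tubb6. Whether shared reads account for these ratios was not tested.

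Each library held 5225929 to 15994635 counts in total mRNA, 6325479 to 13316334 in ribosome-bound mRNA and 5960357 to 9120659 in the controls. Markers showed that some groups hold more than their label names. In LNB total mRNA the 6 astrocyte markers summed to 4311, 715.8 and 6096 CPM (the share of a library's counts, with TMM scale factors) in replicates 1 to 3. The 7 neural stem cell markers summed to 6733, 1065 and 9709. In both sums replicates 1 and 3 stand apart from replicate 2. The stem cell list was split from ENB to LNB in total mRNA. Fabp7 (log2 4.41), Gfap (4.47) and Slc1a3 (4.09) were called higher. Aldoc (3.62), Hes5 (-0.90), Sox9 (0.31) and Nr2e1 (0.49) were not called. The 10 oligodendrocyte markers summed to 20530 and 20250 CPM in the ENB immunoprecipitates, inside the range of the SVZ controls (18060 to 22770), and to 8317 and 8860 in those of NSC. In Neuron total mRNA they ran from 2008 to 9539. The 7 mature neuron markers summed to 3904 and 4089 CPM in the ENB and to 6182 to 6257 in the LNB immunoprecipitates, beside 3609 to 4257 in the SVZ and 4383 to 6218 in the OB controls. In the sorted cells they summed to 399.1 to 425.7 CPM in ENB and 465.3 to 953.4 in LNB, on the separate scale of total mRNA, so every comparison of ribosome-bound with total mRNA in these stages sets libraries with high neuron markers against libraries with low ones. None of the 10 oligodendrocyte, 6 astrocyte or 7 mature neuron markers was at 0 in any group. The 2 Neuron immunoprecipitates carry the sample type of total mRNA and the text of the sorting protocol, and were grouped by title and description. OB control replicate 3, whose description has the code 4wpi where replicates 1 and 2 have 3dpi, gave the lowest value of all 10 tubulins among the OB controls. The part of these differences in the results below was not tested beyond the fits that leave libraries out.

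Tubulin transcripts were most abundant in ENB. The 10 isotypes together took 2.08% ± 0.0811 of all raw counts in ENB total mRNA (SD, n = 3), against 0.928% ± 0.0567 in NSC, 1.23% ± 0.394 in LNB and 0.541% ± 0.0895 in Neuron. Summed beta-tubulin was 3528 ± 236.2 TPM in NSC, 8183 ± 466.8 in ENB, 5179 ± 1465 in LNB and 2903 ± 449.8 in Neuron, with no overlap between ENB (7748 to 8676) and any other stage. Summed alpha-tubulin followed the same course, with 7491 ± 697.9, 16240 ± 1038, 9946 ± 4549 and 3670 ± 918.9 TPM, and ENB (15050 to 16960) lay just above the top of LNB (6129 to 14980). In ribosome-bound mRNA the mean beta-tubulin sum was highest a stage later, in LNB. It was 3079 ± 424.3 TPM in NSC (n = 2), 2446 ± 205.1 in ENB (n = 2), 5932 ± 750.7 in LNB (n = 3) and 4726 ± 812.5 in Neuron (n = 2). LNB (5192 to 6693) and Neuron (4152 to 5301) overlapped. These sums have no test, and the SVZ and OB controls held 1044 ± 175.1 and 1743 ± 867 TPM (n = 3 each). Between the ENB immunoprecipitates and their control only 1.52% of all genes were called. The part of background in the ENB sum was not tested.

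**Figure D1:**
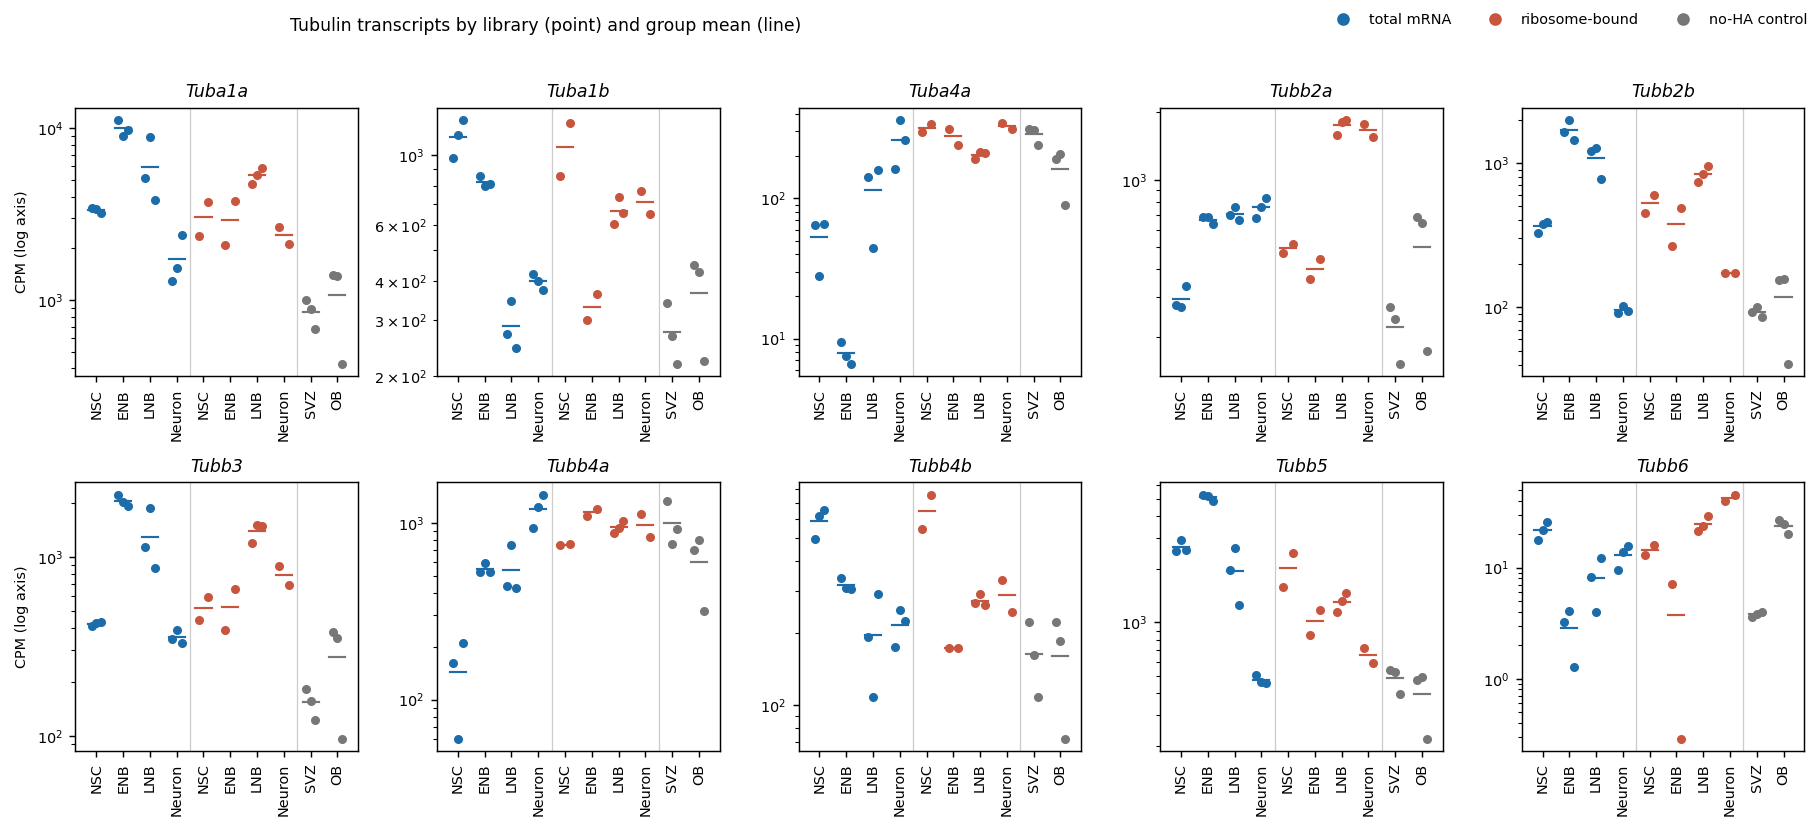
Level of each tubulin gene by library (points, CPM with TMM scale factors on a log axis) with the group mean as a line, for total mRNA (blue), ribosome-bound mRNA (red) and the no-HA controls (grey); total and immunoprecipitation libraries were scaled separately. Tuba1a, Tubb2b, Tubb3 and Tubb5 are highest in ENB total mRNA and low in Neuron, whereas Tuba4a falls to 6.59 to 9.4 CPM in ENB.

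Between NSC and ENB, stem cells give way to neuroblasts that migrate towards the olfactory bulb. In total mRNA 6 of the 10 isotypes rose, 2 fell and 2 did not pass the test. Over all 17592 genes tested, 10.1% were called. The median log2 change was 1.12 over the isotypes and -0.0123 over all genes. Tests are edgeR's quasi-likelihood F test, p-values are adjusted over all genes tested by Benjamini-Hochberg with a threshold of 0.05, and errors of log2 changes are standard errors; p-values measure the spread between these libraries, some of which share animals.

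Tubb3 and Tubb2b, 2 of the beta isotypes of young neurons, led the rise. Tubb3 (ENSMUSG00000062380, GRCm38.p6 chromosome 8, 123411553 to 123422015) was at 408.8, 424.1 and 429.2 CPM in the NSC libraries and at 2223, 2021 and 1912 in those of ENB. All ENB libraries lay far above all NSC libraries, a 5.1-fold difference (log2 2.35 ± 0.25, adjusted p = 0.000623 by edgeR). Tubb2b (chromosome 13, 34127008 to 34130354), which supports neuronal migration, was at 328.5, 377.2 and 388.8 CPM in NSC and at 1639, 1984 and 1436 in ENB, a log2 change of 2.27 ± 0.22 (adjusted p = 0.000546 by edgeR). Its neighbour Tubb2a (chromosome 13, 34074278 to 34078008) moved less, from 272.9 to 335.7 CPM in NSC to 635 to 682.2 in ENB (1.24 ± 0.17, adjusted p = 0.00193 by edgeR). The groups did not overlap for any of these 3 genes. With so few libraries per group, such separation can also arise by chance. Its share over all genes was not computed, here or in the steps below.

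Tuba1a (chromosome 15, 98949847 to 98953501), the main alpha isotype, was at 3421, 3405 and 3202 CPM in NSC and at 11161, 9044 and 9759 in ENB. It rose 3.12-fold (log2 1.64 ± 0.30, adjusted p = 0.00768 by edgeR) with no overlap. Tuba1b, which lies beside it (chromosome 15, 98931429 to 98934390) and is expressed in most dividing cells, took the opposite sign: 977.3, 1156 and 1289 CPM in NSC against 859.3, 794.9 and 810 in ENB (-0.41 ± 0.18, adjusted p = 0.161 by edgeR). Its groups did not overlap either, but the difference did not pass the test; by DESeq2 it did (adjusted p = 0.0284).

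Tubb5 (chromosome 17, 35833920 to 35838301), the progenitor isotype, was already high in NSC, at 2533, 2925 and 2570 CPM, and was at 5297, 5183 and 4897 in ENB. This 2-fold rise (log2 1.00 ± 0.23, adjusted p = 0.019 by edgeR) was lost without any one of the 6 libraries (adjusted p from 0.0553 to 0.103). Tubb4a (chromosome 17, 57080061 to 57087600) went from 160.7, 60.09 and 210.1 CPM to 527.7, 591.8 and 525.7, a log2 change of 2.00 ± 0.39 (adjusted p = 0.00906 by edgeR). Since Tubb4a is also an oligodendrocyte transcript, the summed oligodendrocyte markers are given beside it: 302.6, 1146 and 3188 CPM in the NSC libraries and 1142, 2971 and 2628 in those of ENB. Their part in the change of Tubb4a was not tested.

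Tuba4a and Tubb6 fell. Tuba4a (chromosome 1, 75214972 to 75221261), an alpha isotype of mature brain and muscle, was at 64.78, 27.81 and 66.02 CPM in NSC and at 9.4, 7.58 and 6.59 in ENB (log2 -2.68 ± 0.51, adjusted p = 0.00872 by edgeR). Tubb6 (chromosome 18, 67390731 to 67402749), a minor beta isotype in brain, was at 17.79, 21.65 and 25.72 CPM in NSC and at 3.22, 4.09 and 1.27 in ENB (-2.86 ± 0.62, adjusted p = 0.0153 by edgeR). Neither gene overlapped between the stages. The Tubb6 call rested on few counts, 20 to 38 per ENB library, and was lost without NSC replicate 3 (adjusted p = 0.0576) or without ENB replicate 1 (0.054) or 3 (0.0583). Tubb4b (chromosome 2, 25222158 to 25224702), known from cilia, was at 496.4 to 652.4 CPM in NSC and at 304.6 to 340.3 in ENB, without overlap but short of the threshold (-0.82 ± 0.31, adjusted p = 0.114 by edgeR, 0.0497 by DESeq2).

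**Figure D2:**
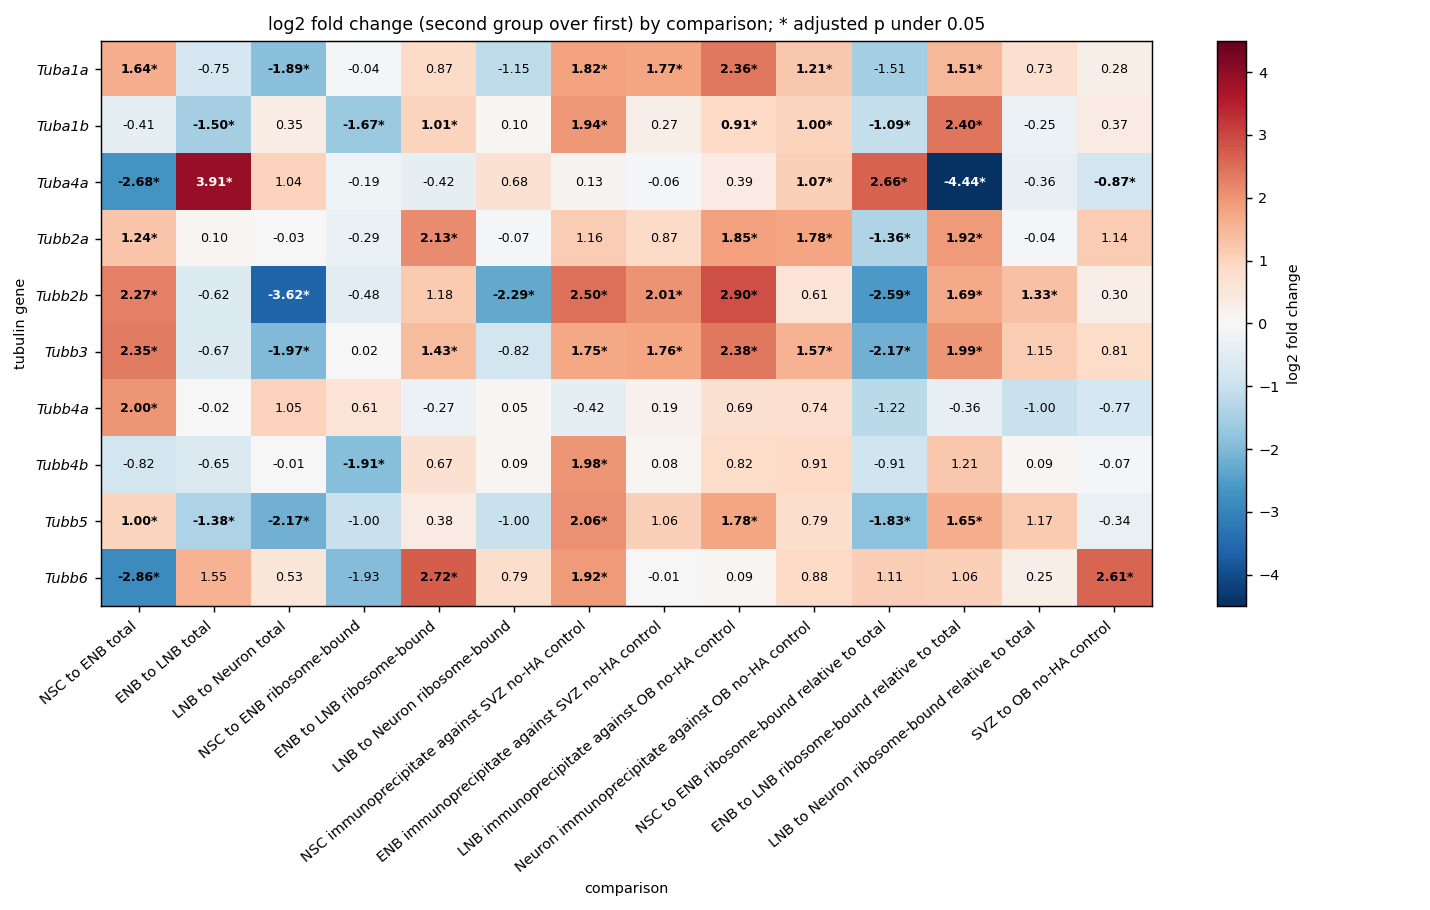
Log2 fold change of each tubulin gene (rows) in the 14 comparisons (columns), second group over first; red is higher, blue lower, and an asterisk marks an adjusted p under 0.05 by edgeR. In total mRNA 8 of 10 isotypes carry an asterisk from NSC to ENB, 3 from ENB to LNB and 4 from LNB to Neuron.

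The step from ENB to LNB compares neuroblasts before and after they reach the olfactory bulb. Here 1 isotype rose, 2 fell and 7 did not pass the test, with 3.77% of all genes called. The median log2 change of the isotypes was -0.637, that of all genes 0.0492. Tuba1b fell from 794.9 to 859.3 CPM in ENB to 272.1, 346.4 and 244.5 in LNB (-1.50 ± 0.18, adjusted p = 0.00488 by edgeR). Tubb5 fell from 4897 to 5297 CPM to 1982, 2637 and 1262 (-1.38 ± 0.23, adjusted p = 0.0122 by edgeR, 0.0528 without LNB replicate 1). Tuba4a rose to 141.5, 44.6 and 158.2 CPM (3.91 ± 0.54, adjusted p = 0.00592 by edgeR). ENB replicate 2 and LNB replicate 3 come from the same animal, as do ENB replicate 3 and LNB replicate 2 from the same pool, and with these animals as a block the same number of isotypes, 3, was called.

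The LNB libraries were not alike in these genes. Replicate 2 was the one with low sums of the astrocyte and stem cell marker lists. It had the highest Tuba1a (8836 CPM, against 5097 and 3844), Tubb3 (1875, against 1130 and 862.8) and Tubb5. Its Tuba4a and Tubb4b (108.1, against 192.4 and 290.1) were the lowest. With replicate 2 as the one LNB library, an alternative chosen after seeing the data, the log2 changes were -1.22 for Tuba1b, -0.94 for Tubb5 and 2.52 for Tuba4a. Each then had an adjusted p of 0.152 in a fit that called 8 genes in all and assumes that the lone library varies like the other groups. Tubb3 changed by -0.67 ± 0.24 over 3 libraries (adjusted p = 0.144 by edgeR) and by -0.11 with replicate 2 alone. Cell cycle markers ran beside Tuba1b and Tubb5 in this step: the sum of 8 such genes was 1576 to 2215 CPM in ENB and 180 to 327.7 in LNB. Their part in the result was not tested.

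From LNB to Neuron, 4 isotypes fell, none of the 10 passed the test upwards, and 6 did not pass it, beside 14.7% of all genes. The median log2 change was -0.0196 over the isotypes and -0.178 over all genes. Tubb2b fell furthest among them, from 1205, 1277 and 775.4 CPM to 91, 102.7 and 94.39, which is 12.3-fold lower (-3.62 ± 0.23, adjusted p = 2.5e-05 by edgeR). Tubb5 fell from 1262 to 2637 CPM to 505.1, 459.9 and 453.2 (-2.17 ± 0.24, adjusted p = 0.000239 by edgeR). Tubb3 fell from 862.8 to 1875 CPM to 347.6, 391.9 and 327.7 (-1.97 ± 0.24, adjusted p = 0.000465 by edgeR), and Tuba1a from 3844 to 8836 CPM to 1287, 1544 and 2373 (-1.89 ± 0.30, adjusted p = 0.00206 by edgeR). For all 4 genes every Neuron library lay below every LNB library, the sign was the same within the one second index that both stages share, and all 4 calls held without any single library and with LNB replicate 2 alone.

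The other Tubb2 gene did not follow Tubb2b. Tubb2a was at 699.7, 757.5 and 660 CPM in LNB and at 674.3, 760.3 and 833.1 in Neuron (-0.03 ± 0.17, adjusted p = 0.931 by edgeR). Tubb4a was at 440, 747.9 and 429.5 CPM in LNB and at 939, 1239 and 1448 in Neuron, without overlap (1.05 ± 0.37, adjusted p = 0.0819 by edgeR, 0.0137 by DESeq2). Over the Neuron libraries Tubb4a had the same order as the summed oligodendrocyte markers (2008, 6685 and 9539 CPM). So had Tuba1a, Tubb2a and Tubb6, so this order is not particular to Tubb4a. The oligodendrocyte surface gene Mog ran from 1.995 to 154.8 CPM. The part of these markers in the level of Tubb4a was not tested. Tuba4a reached 161.5, 362 and 259.1 CPM in Neuron (1.04 ± 0.48, adjusted p = 0.167 by edgeR). With LNB replicate 2 alone its change was 2.48 (adjusted p = 0.0413), and with the second sequencing index as a term it was 1.90 (0.0297).

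The RefSeq promoters of the isotypes that moved together were read to see whether they share sequence. Entries were found for 8 of the 10 genes in GRCm38.p6, without Tubb2b and Tubb6. The 80 bases before the start are printed for the 3 isotypes that rose into ENB and fell into Neuron, and for Tubb2a, which rose without the later fall. Capitals mark TATAA, the core of the TATA box.
Tubb3, chr8:123411473-123411552, plus strand: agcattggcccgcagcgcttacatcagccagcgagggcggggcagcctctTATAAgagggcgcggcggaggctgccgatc
Tuba1a, chr15:98953502-98953581, minus strand: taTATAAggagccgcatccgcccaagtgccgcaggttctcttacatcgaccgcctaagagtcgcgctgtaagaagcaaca
Tubb5, chr17:35838302-35838381, minus strand: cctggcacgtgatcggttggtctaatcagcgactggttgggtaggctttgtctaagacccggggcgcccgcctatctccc
Tubb2a, chr13:34078009-34078088, minus strand: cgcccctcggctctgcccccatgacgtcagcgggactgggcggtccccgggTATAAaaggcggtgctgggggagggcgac
TATAA began 30 bases before the start in Tubb3, where it overlaps a match on the other strand, 29 in Tubb2a and 78 in Tuba1a, and was not found within 250 bases before the start of Tubb5 on either strand. On the same strand and 40 to 21 bases before the start, it was present in Tubb3 and Tubb2a, 2 of 8 isotypes, and in 3.32% of 32817 promoters. Anywhere in the 250 bases and on either strand, 22.8% of promoters held it. The CCAAT motif, searched on both strands, was present in Tubb3, Tuba1a, Tubb5 and Tubb4b and in 33.8% of all promoters. The motifs were picked after the sequences had been seen, and a match is a description of letters.

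The makeup of the beta-tubulin pool changed from stage to stage, given as each isotype's share of summed beta-tubulin TPM with no test. In NSC total mRNA Tubb5 made up 43.5% ± 2.98 (SD, n = 3) and Tubb4b 19.8% ± 1.42. In ENB Tubb5 was still the largest share at 35.9% ± 1.41, while Tubb2b and Tubb3 each stood at 21.9% (SD 2.66 and 1.19) and Tubb4b at 4.56% ± 0.424. LNB had a pool of 4 isotypes in near-equal parts, with Tubb2b at 23.1% ± 2.62, Tubb5 at 22.5% ± 2.67, Tubb3 at 21.7% ± 3.84 and Tubb2a at 20.1% ± 3.66, which do not differ beyond their spread. In Neuron Tubb2a (34% ± 0.965) and Tubb4a (30.9% ± 3.59) led, with overlapping ranges (33.2% to 35% and 27.6% to 34.7%). Tubb3 was at 11.8% ± 1.52, Tubb5 at 10.1% ± 1.91 and Tubb2b at 3.44% ± 0.379.

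**Figure D3:**
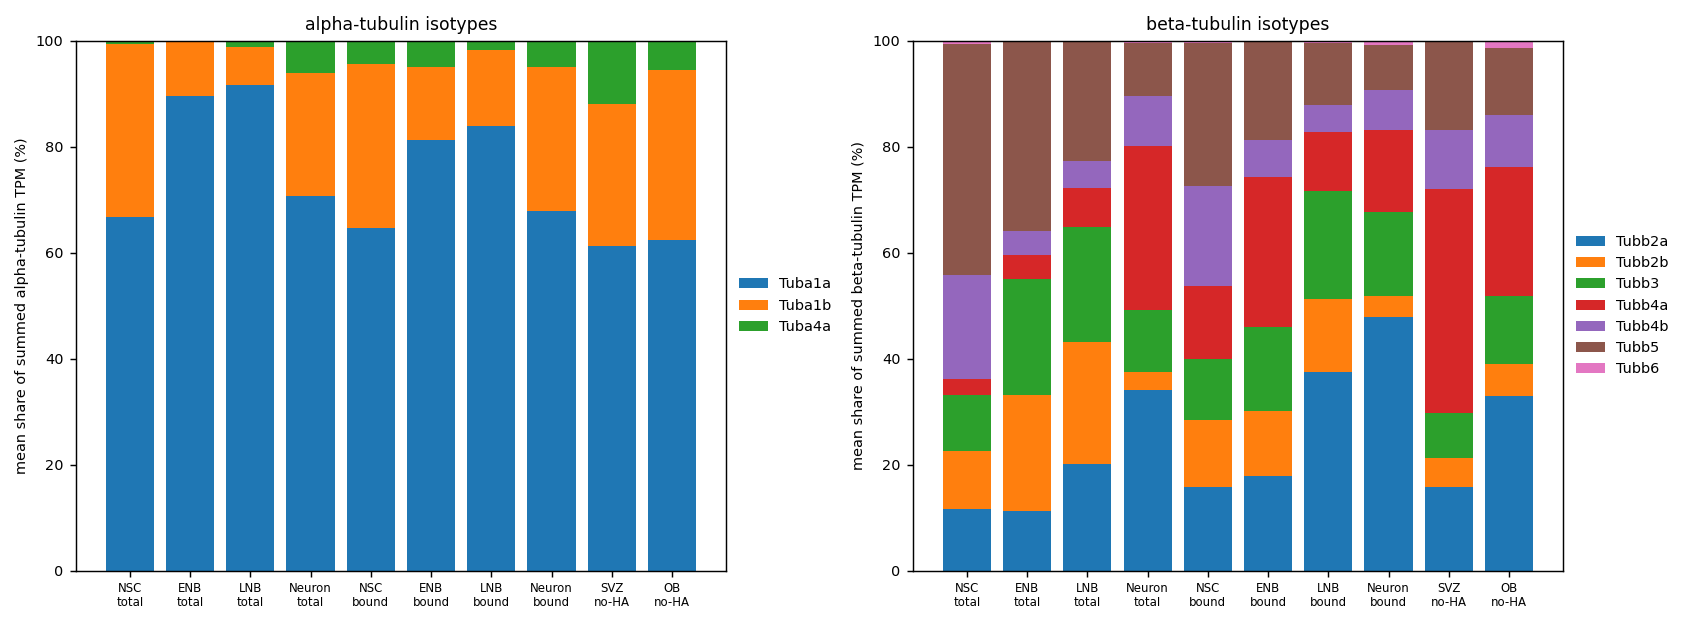
Mean share of each isotype in the summed TPM of the 3 alpha (left) and 7 beta (right) tubulin genes, in percent, for 10 groups of 2 or 3 libraries (bound stands for ribosome-bound). Tubb5 shrinks from 43.5% in NSC to 10.1% in Neuron total mRNA while Tubb2a and Tubb4a grow, and Tuba1b is smallest in LNB total mRNA, at 7.04%.

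In the alpha pool Tuba1a held 66.7% ± 3.59 of the TPM in NSC, 89.5% ± 0.439 in ENB, 91.7% ± 2.58 in LNB and 70.7% ± 5.86 in Neuron total mRNA. Tuba1b took most of the rest, with 32.7% ± 3.6, 10.5% ± 0.435, 7.04% ± 1.67 and 23.3% ± 5.86. Tuba4a stayed under 1% in NSC and ENB and was at 6.01% ± 2.5 in Neuron, and at 1.56 TPM ± 0.881 in ENB it had the lowest mean of the 3 alpha isotypes over all 10 groups.

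The ribosome-bound pools had the same leading isotypes in NSC, Tubb5 at 27% ± 3.53 and Tubb4b at 18.8% ± 0.254 (n = 2), but Tubb4a stood at 13.7% ± 2.48 there against 2.86% ± 1.51 in total mRNA. In the ENB immunoprecipitates Tubb4a led with 28.2% ± 3.76, and in the SVZ controls it was at 42.3% ± 6.72. LNB immunoprecipitates were led by Tubb2a at 37.4% ± 0.629 and Tubb3 at 20.5% ± 0.532 (n = 3), and those of Neuron by Tubb2a at 47.9% ± 2.08 (n = 2). The OB controls held 33% ± 4.74 Tubb2a and 24.4% ± 4.1 Tubb4a. Because the homogenate is unsorted, the high Tubb4a share in SVZ immunoprecipitates and controls is given with the mean level of Mbp, the myelin basic protein gene of oligodendrocytes: 4543 CPM in the SVZ controls, 4374 in the ENB and 1991 in the NSC immunoprecipitates. Mean Mbp was lower in the LNB (504.9 CPM) and Neuron (241.6) immunoprecipitates. Tubb4a there held 11% and 15.5% of the beta-tubulin TPM. Its mean level was 947.8 and 979.9 CPM, beside 1151 in the ENB immunoprecipitates. The part of oligodendrocytes in the level of Tubb4a was not tested. In bulk samples, fewer cells of a type and less RNA per cell cannot be told apart.

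Each immunoprecipitate was set against the control of its tissue to see which isotypes stood above background. In NSC 7 isotypes were higher and 3 were not called, with 15.3% of all genes called and a median of 1.87 against -0.142 over all genes. Tubb2b was at 447.5 and 602.4 CPM against 93.12, 99.77 and 84.9 in the controls (log2 2.50 ± 0.41, adjusted p = 0.00121 by edgeR). Tubb5 was at 1595 and 2479 CPM against 391.8 to 536.2 (2.06 ± 0.32, adjusted p = 0.00088 by edgeR). Tubb4b was higher by 1.98 ± 0.37, Tuba1b by 1.94 ± 0.30 and Tuba1a by 1.82 ± 0.41. Tubb4a was not above the control, at 752.3 and 759.4 CPM against 765.3 to 1335 (-0.42 ± 0.33, adjusted p = 0.405 by edgeR). Calls were lost for Tuba1a without NSC replicate 2 (adjusted p = 0.0928), for Tubb3 without NSC replicate 2 (0.0886) or SVZ control 3 (0.0541), and for Tubb6 without any of the 5 libraries (0.0737 to 0.16) and on expected counts (0.0782).

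ENB immunoprecipitates stood least above their control: 1.52% of all genes were called, and 3 isotypes were higher. Tuba1a was at 2098 and 3775 CPM against 674.5 to 1005 (1.77 ± 0.41, adjusted p = 0.0385 by edgeR), Tubb2b at 265.9 and 483.7 against 84.9 to 99.77 (2.01 ± 0.41, adjusted p = 0.0173 by edgeR), and Tubb3 at 390.6 and 656.8 against 122.7 to 182.7 (1.76 ± 0.41, adjusted p = 0.042 by edgeR). For all 3 genes replicate 2 was the higher library, as it was for the summed neuroblast markers (969.8 and 2439 CPM, controls 211.5 to 388.2). None of the 3 calls held without ENB replicate 2 (adjusted p from 0.299 to 0.442) or without SVZ control 1 (0.061 to 0.0787) or 3 (0.0783 to 0.161). Tuba1a and Tubb3 were also lost without SVZ control 2 (0.088 and 0.0973), and Tubb3 without ENB replicate 1 (0.0521). Of the other 7 isotypes, Tuba1b, Tuba4a, Tubb4a, Tubb4b and Tubb6 differed from the control by 0.27 or less on the log2 scale. For Tubb6 the ENB libraries, at 7.17 and 0.29 CPM, lay on either side of the controls (3.57 to 3.98). Tubb2a (0.87) and Tubb5 (1.06) were higher without passing the test. Tubb5 was called by DESeq2 (adjusted p = 0.0155) and by edgeR without the filter on low counts (0.00996).

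In LNB 6 isotypes were higher and 4 were not called, with 10.1% of all genes called and a median of 1.35. Tubb2b was at 736.6, 831.9 and 958.3 CPM against 154.3, 155.8 and 40.34 (2.90 ± 0.39, adjusted p = 0.00237 by edgeR), and Tubb3 at 1201, 1504 and 1494 against 379.6, 353.8 and 96.17 (2.38 ± 0.39, adjusted p = 0.00595 by edgeR). Tuba1a was higher by 2.36 ± 0.39, Tubb2a by 1.85 ± 0.38 and Tubb5 by 1.78 ± 0.30. Tuba1b passed narrowly (0.91 ± 0.27, adjusted p = 0.0421 by edgeR) and was lost without any LNB library (0.0759 to 0.154) and without OB control 1 (0.0543) or 3 (0.114), and with RLE scale factors (0.0793). Tubb2a was lost without LNB replicate 2 (0.0539) or 3 (0.0631).

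In Neuron 5 isotypes were higher and 5 were not called, with 27.4% of all genes called. The same 3 OB controls served LNB and Neuron. Only OB control 3 has the code 4wpi of the Neuron libraries, and OB controls 1 and 2 have 3dpi. Tubb2a was at 1784 and 1548 CPM against 686.7, 642.4 and 172.7 (1.78 ± 0.41, adjusted p = 0.00525 by edgeR), and Tuba4a was called above a control in this group alone, at 347 and 311.9 CPM against 192.2, 205.5 and 89.15 (1.07 ± 0.29, adjusted p = 0.0126 by edgeR). Tubb2b, high in LNB, was at 172.2 and 171.5 CPM here, beside 40.34 to 155.8 in the controls (0.61 ± 0.40, adjusted p = 0.278 by edgeR). The lowest of these values is that of OB control 3. Whether Tubb2b stood above controls of its own time code was not tested. Without Neuron replicate 1 the calls of Tuba1a (adjusted p = 0.154), Tuba1b (0.102), Tuba4a (0.0622) and Tubb3 (0.0615) were lost, and without replicate 2 those of Tuba1a (0.0778) and Tuba1b (0.0557). Between the controls themselves 11.8% of all genes were called, and of the isotypes Tuba4a was lower (-0.87 ± 0.26, adjusted p = 0.04 by edgeR) and Tubb6 higher in the OB (2.61 ± 0.57, adjusted p = 0.00523 by edgeR), with Tubb6 at 3.57 to 3.98 CPM in the SVZ and 20.06 to 26.83 in the OB. The Tuba4a call was lost without SVZ control 1 (0.109) or 2 (0.121) or OB control 1 (0.0615) or 3 (0.0576).

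Between stages, ribosome-bound tubulin followed a different course from total mRNA. From NSC to ENB no isotype passed the test upwards in the immunoprecipitates and 2 fell, with 8.28% of all genes called and a median of -0.387. Tubb4b fell from 542.5 and 757.4 CPM to 172.5 and 172.6 (-1.91 ± 0.42, adjusted p = 0.0136 by edgeR), and Tuba1b from 854.7 and 1261 to 300.4 and 362.3 (-1.67 ± 0.34, adjusted p = 0.00792 by edgeR). Both ENB values lay near the SVZ controls, at 107.5 to 221.8 CPM for Tubb4b and 218.2 to 340 for Tuba1b. Both calls were lost without NSC replicate 2 (Tubb4b 0.0776, Tuba1b 0.0648) or ENB replicate 1 (0.0883 and 0.0809), and that of Tubb4b without ENB replicate 2 (0.0819). Tubb3 was at 443.8 and 594.4 CPM in NSC and at 390.6 and 656.8 in ENB, fully overlapping (0.02 ± 0.46, adjusted p = 1 by edgeR).

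From ENB to LNB 4 isotypes rose and 6 did not pass the test, beside 12.9% of all genes and with a median of 0.94. Tubb2a rose from 361.3 and 444.7 CPM to 1585, 1811 and 1849 (2.13 ± 0.44, adjusted p = 0.00442 by edgeR, 0.064 without ENB replicate 1). Tubb3 rose to 1201, 1504 and 1494 CPM (1.43 ± 0.44, adjusted p = 0.0407 by edgeR), Tuba1b to 603.6, 736.5 and 653.2 (1.01 ± 0.31, adjusted p = 0.0393 by edgeR) and Tubb6 to 21.34, 23.46 and 29.24 from 7.17 and 0.29 (2.72 ± 0.66, adjusted p = 0.0122 by edgeR). The groups did not overlap for any of the 4 genes, but the OB controls alone held Tubb6 at 20.06 to 26.83 CPM and Tubb2a at up to 686.7. Replicates 1 and 2 of both stages come from the same animals. With these animals as a block Tuba1b (adjusted p = 0.117) and Tubb3 (0.107) were no longer called, while Tubb2a and Tubb6 were. Tuba1b and Tubb3 were also lost without any 1 of the 5 libraries (0.0654 to 0.23 and 0.063 to 0.276) and with RLE scale factors (0.064 and 0.0576), and Tubb6, with 2 counts in ENB replicate 2, on expected counts (0.055).

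The 10 oligodendrocyte markers all fell in this same step, from 20250 and 20530 CPM in sum to 1737 to 2387, and the 10 also fell between the SVZ and OB controls. Neuron markers moved with the rises of Tubb2a and Tubb3: the 7 mature neuron markers summed to 3904 and 4089 CPM in ENB and to 6182 to 6257 in LNB, with 4 of them called higher and 2 lower. The 6 markers of mitral and other glutamatergic neurons went from 29.82 and 70.75 CPM in sum to 422.4 to 441.5, with 3 called higher and 0 lower. Between the SVZ and OB controls 3 of the 7 were called higher and 2 lower, and 4 of the 6 higher. The part of these markers in the tubulin changes was not tested. From LNB to Neuron 1 isotype fell, with 4.13% of all genes called and a median of -0.00712: Tubb2b went from 736.6 to 958.3 CPM to 172.2 and 171.5 (-2.29 ± 0.45, adjusted p = 0.00772 by edgeR, 0.0725 without Neuron replicate 2). The LNB and Neuron immunoprecipitates share no second index, so the index and the stage cannot be told apart in this step.

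**Figure D4:**
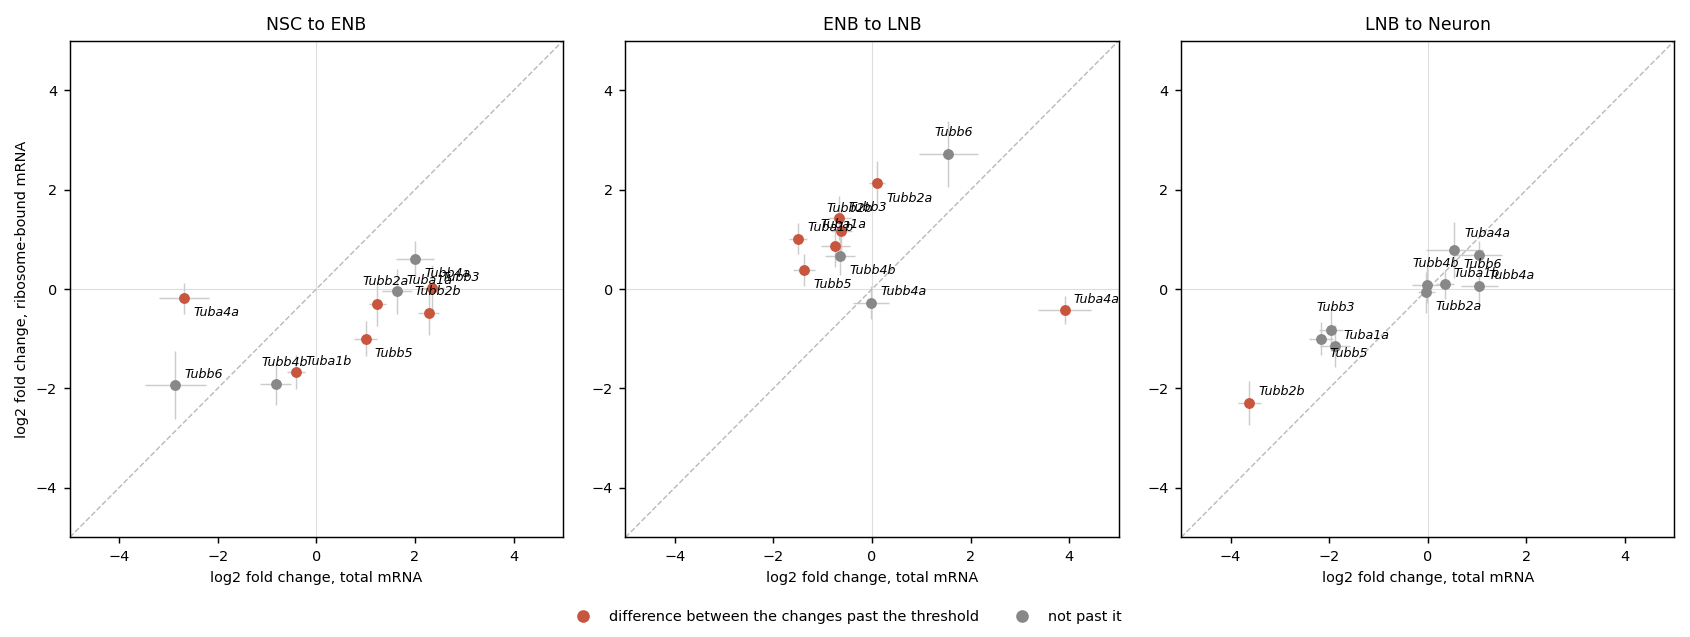
Log2 fold change of each tubulin gene in total mRNA (horizontal axis) and ribosome-bound mRNA (vertical axis) for the 3 steps, with standard errors as bars and equal change as a dashed line; red marks genes whose difference between the changes passed the threshold by edgeR. Most isotypes lie below the line from NSC to ENB and above it from ENB to LNB, and Tuba4a lies on the opposite side in both.

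The difference between the changes was tested directly, as the change in ribosome-bound mRNA relative to that in total mRNA over 21 libraries. From NSC to ENB it was negative for 5 isotypes and positive for 1, with 2.81% of all genes called and a median of -1.29 against 0.2 over all genes. Tubb2b had the largest shortfall of the 10 (-2.59 ± 0.35, adjusted p = 0.00351 by edgeR): its total mRNA rose by 2.27 while its ribosome-bound level went from 447.5 and 602.4 to 265.9 and 483.7 CPM. Tubb3 followed with -2.17 ± 0.37 (adjusted p = 0.00669 by edgeR), Tubb5 with -1.83 ± 0.35 (0.00992), Tubb2a with -1.36 ± 0.23 (0.00672) and Tuba1b with -1.09 ± 0.27 (0.0389). Tuba1a had -1.51 ± 0.45 and an adjusted p of 0.0775. Tuba4a went the other way (2.66 ± 0.64, adjusted p = 0.0322 by edgeR), with a fall in total mRNA and 241.1 to 336.7 CPM in the immunoprecipitates of both stages, beside 241.3 to 314.2 in the SVZ controls.

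The ENB immunoprecipitates, which stood least above their control, enter each of these values. The Tubb2b call held without any single library. The others were lost without ENB replicate 1 (adjusted p from 0.0532 for Tubb2a and Tubb3 to 0.179 for Tuba1b), and those of Tubb3, Tubb5, Tuba1b and Tuba4a without NSC immunoprecipitate 2 (0.0516 to 0.249). Each of Tuba1b and Tuba4a was lost without 8 of the 10 libraries: Tuba1b kept its call without NSC immunoprecipitate 1 or NSC total replicate 3, and Tuba4a without ENB total replicate 1 or NSC total replicate 2. The Tuba1b call also ended without the filter on low counts (0.0727) and on expected counts (0.0656).

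From ENB to LNB the difference was positive for 6 isotypes and negative for 1, with 6.15% of all genes called and a median of 1.58 against -0.087. Tuba1b had 2.40 ± 0.27 (adjusted p = 0.000278 by edgeR), with a fall from 821.4 to 287.7 CPM in mean total mRNA and a rise from 331.3 to 664.4 in ribosome-bound mRNA. Tubb3 had 1.99 ± 0.36 (adjusted p = 0.00466 by edgeR), Tubb2a 1.92 ± 0.23 (0.000278), Tubb2b 1.69 ± 0.33 (0.0083), Tubb5 1.65 ± 0.33 (0.00894) and Tuba1a 1.51 ± 0.43 (0.0432). Tuba4a had -4.44 ± 0.60 (adjusted p = 0.00114 by edgeR). Its mean in the immunoprecipitates was 276.7 CPM in ENB and 205.5 in LNB, beside 287.9 in the SVZ and 162.3 in the OB controls. In neither stage was it called above its control (log2 -0.06 and 0.39). Tuba1b (0.27) and Tubb2a (0.87) were not called above the control in ENB either. The part of background in the differences of these genes was not tested. The same ENB libraries enter this step and the one before it, so the opposite signs of the 2 steps are not independent of each other. Tuba1a was lost without any library but ENB immunoprecipitate 2 or LNB total replicate 2 (adjusted p up to 0.225), with RLE scale factors (0.0502) and on expected counts (0.0514). Without ENB immunoprecipitate 1 the calls of Tuba1a (0.225), Tubb2b (0.0546) and Tubb5 (0.0593) were lost, and with LNB total replicate 2 alone those of Tuba1a (0.407), Tubb2b (0.0701), Tubb3 (0.0515) and Tubb5 (0.0701). The calls of Tuba1b, Tubb2a and Tuba4a held in both. Tubb4b, not called with all libraries, had a difference of 2.19 with LNB total replicate 2 alone and gained a call there.

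From LNB to Neuron 1 isotype was called, beside 3.15% of all genes: Tubb2b fell less in ribosome-bound than in total mRNA (1.33 ± 0.33, adjusted p = 0.035 by edgeR). Tubb5 had 1.17 ± 0.32 (0.0564) and Tubb3 1.15 ± 0.35 (0.0768). The Tubb2b call was lost without any of the 3 LNB immunoprecipitates (0.0554 to 0.0976), LNB total replicates 1 or 2 (0.0969 and 0.0841), Neuron total replicates 1 or 2 (0.0784 and 0.0667) or either Neuron immunoprecipitate (0.134 and 0.17), and without the filter on low counts (0.057). With LNB total replicate 2 alone the difference was 1.62 for Tubb5 and 1.72 for Tubb3.

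The rest of the tubulin pathway was described from 6 lists of 78 genes. Among 10 other tubulin genes, 6 were tested. The alpha isotype Tuba8 fell from NSC to ENB in total mRNA (-7.27 ± 1.48) and rose in the next steps (7.83 ± 1.45 and 5.46 ± 0.85). Of the 10 genes, 5 had no counts in any ENB total mRNA library and 4 had none in those of NSC. The ENB level of Tuba8 is not given here. Its changes into and out of ENB may rest on few or no counts, so their size is uncertain. Tuba1c, the third member of the Tuba1 cluster, fell with Tuba1b from ENB to LNB (-1.82 ± 0.42) and again into Neuron (-2.98 ± 0.45). Of 21 enzymes that modify tubulin, of which 20 were tested, 2 rose from NSC to ENB, with none lower, which is near the 10.1% of all genes called in either direction: Ttll1, the catalytic subunit of a polyglutamylase (1.73 ± 0.26), and Atat1, the alpha-tubulin acetyltransferase (1.73 ± 0.29). From LNB to Neuron 2 of them rose and 4 fell, beside 5.33% of all genes higher and 9.34% lower, led by Svbp, the partner of the detyrosinating vasohibins (-2.42 ± 0.24), Atat1 (-2.17 ± 0.29) and Ttll12 (-1.61 ± 0.34). Svbp was also higher in ribosome-bound relative to total mRNA in that step (2.72 ± 0.34, adjusted p = 0.000843 by edgeR).

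Among the 8 cofactors and autoregulation genes 2 rose from NSC to ENB, Tbcc (1.01 ± 0.30) and Tbce (0.73 ± 0.19), both of which help assemble the tubulin dimer. Over all genes 4.95% were called higher in that step. The beta-tubulin chaperone Tbca fell into Neuron (-1.30 ± 0.33), where Arl2, a GTPase that works with the cofactors, rose (1.01 ± 0.31). There 9.34% of all genes were called lower and 5.33% higher. The 14 folding chaperones, subunits of the CCT and prefoldin complexes, held 2 called genes in total mRNA, both from LNB to Neuron, where Pfdn5 (-0.96 ± 0.20) and Cct2 (-0.73 ± 0.19) fell. That count is near the 14.7% of all genes called in that step. From NSC to ENB none of the 14 was called by edgeR or DESeq2 and none had an unadjusted p under 0.05; from ENB to LNB the counts were again 0 and 0, with 1 unadjusted. In the immunoprecipitates 9 of the 14 were above the control in NSC, where 8.75% of all genes were called higher, 9 in LNB (7% of all genes) and 11 in Neuron (11.6%), among them Cct4 in NSC (1.29 ± 0.23) and LNB (1.22 ± 0.21) and Cct8 in Neuron (1.59 ± 0.25). In ENB none of them was called higher and Pfdn5 (-1.51 ± 0.27) and Pfdn1 (-0.95 ± 0.22) were lower, with 6 of 14 at an unadjusted p under 0.05 and 4 called by DESeq2 in either direction. Of all genes, 0.813% were called lower there by edgeR.

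Of 17 genes of the gamma-tubulin ring and nucleation, 1 fell from ENB to LNB in total mRNA, the centrosomal Cdk5rap2 (-1.17 ± 0.29), and 1 from LNB to Neuron, the augmin subunit Haus1 (-1.41 ± 0.39). Over all genes 0.966% were called lower in the first of these steps and 9.34% in the second. Cdk5rap2 also fell in ribosome-bound mRNA from ENB to LNB (-1.68 ± 0.36) and from LNB to Neuron (-1.99 ± 0.40). Among 8 severing genes, of which 7 were tested, the katanin subunit Katna1 fell from LNB to Neuron in total mRNA (-1.30 ± 0.33) and from ENB to LNB in ribosome-bound mRNA (-0.96 ± 0.30). The shares of all genes called lower in these comparisons were 9.34% and 6.05%. All values of these pathway genes passed the threshold by edgeR.

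The genes whose pattern over the 12 total mRNA libraries was most like that of an isotype were named among 8932 genes with a mean log2 CPM over 4. For Tubb3 they were Shtn1 (Pearson r = 0.986), Prmt2 (0.984) and Arpc5 (0.979). For Tubb5 they were Tmsb4x (0.994), Nedd4 (0.993) and Eef1a1 (0.987), and for Tubb4a Ank3 (0.977), Celf4 (0.974) and Prkcz (0.972). These values describe 12 libraries that fall into 4 stages and share their scale factors, and carry no test.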

How the data were processed

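Total mRNA, ribosome-bound mRNA and no-HA controls were measured in 27 Smart-seq2 libraries. The deposited raw counts are whole-number reads per Ensembl gene, and the tool that made them is not given in the sources used here. The deposited expected counts are estimated counts, and the deposited TPM values are corrected for length and library total. The submitters' processing notes name RSEM 1.2.21, Bowtie2 2.2.6 and GRCm38. The TPM table's 92 entries that lack an ID were left out. Of 45195 genes, 44548 matched a symbol. Positions are those of RefSeq for GRCm38.p6.

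Raw counts were tested in R 4.3.3 with edgeR 4.0.16 (TMM, filterByExpr, quasi-likelihood F test) in fits of 12 total, 15 immunoprecipitation and 21 combined libraries, and the code was tested on simulated data. Groups came from titles. All 10 tubulins are named; each pathway list names at most its 3 called genes with the smallest adjusted p in a comparison. Alternatives were DESeq2 1.42.0, RLE scaling, no filter, rounded expected counts, blocks by replicate number or shared animal, the second index as a term, and each library left out. Shares were computed from TPM, and for these also from raw counts. After removing group means, same-numbered libraries correlated from -0.179 to 0.0971 in total mRNA (18 pairs). In ribosome-bound mRNA they correlated from -0.0669 to 0.158 (12 pairs, which are not all independent). The ENB and LNB immunoprecipitates known to share animals gave 0.158 (number 1) and -0.0669 (number 2). Low correlations therefore cannot show whether libraries are paired. Per the labels ENB and LNB share animals: immunoprecipitates 1 and 2 under the same numbers, and total libraries crosswise (ENB 2 with LNB 3, ENB 3 with LNB 2), so none of the 18 total pairs shares an animal. The tubulins, lists and tests were chosen with earlier results of these data known.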

Additional observations from a re-analysis of the deposited data

Results flagged for a closer look

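The change between stages differed between ribosome-bound and total mRNA, by a test of the difference itself, for 14 combinations of isotype and step. From NSC to ENB these were Tuba1b (-1.089 on the log2 scale), Tuba4a (2.664), Tubb2a (-1.363), Tubb2b (-2.588), Tubb3 (-2.165) and Tubb5 (-1.832). From ENB to LNB they were Tuba1a (1.508), Tuba1b (2.403), Tuba4a (-4.439), Tubb2a (1.916), Tubb2b (1.694), Tubb3 (1.985) and Tubb5 (1.651). From LNB to Neuron the one case was Tubb2b (1.329). The ENB immunoprecipitates enter 13 of the 14, and 1.52% of all genes were called between them and their control.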

How the results depend on the processing

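Over 1650 refits of the 140 isotype results under the alternatives, 1475 kept their direction and their side of the threshold, 124 lost a call, 51 gained one and 0 reversed a called value; 65 refits changed the sign of a value that was not called. The number of isotypes called from ENB to LNB in total mRNA, 3 as reported, was 5 by DESeq2, 0 with LNB replicate 2 as the one library, which was chosen after seeing the data (4 at an unadjusted p under 0.05), and 2 to 5 without 1 library. In ribosome-bound mRNA the count from NSC to ENB, 2 as reported, was 4 without the filter, 4 by DESeq2 and 0 to 2 without 1 library. From ENB to LNB, 4 as reported, it was 2 with RLE scaling, 2 with the shared animals as a block and 1 to 2 without 1 library. From LNB to Neuron, 1 as reported, it was 3 without the filter, 2 by DESeq2 and 0 to 1 without 1 library. Against the controls, leaving out 1 library gave 4 to 6 isotypes in NSC, 0 to 3 in ENB and 1 to 6 in Neuron, and between the controls 1 to 3, with 5 without the filter and 4 by DESeq2. For ribosome-bound relative to total mRNA, leaving out 1 library gave 1 to 5 from NSC to ENB and 0 to 3 from LNB to Neuron; from ENB to LNB, 7 as reported, LNB replicate 2 as the one library gave 4. In the last step the count was 0 without the filter (4 at an unadjusted p under 0.05) and 3 by DESeq2. The replicate block by number changed 1 call, Tubb2b from ENB to LNB in ribosome-bound mRNA (1.415, adjusted p = 0.0424), and no other; the cause of these differences was not tested, beyond the smaller number of libraries where some were left out. The share of all genes called in each refit is not given beside these counts. Whether a setting changed the isotype counts more than the count over all genes was not tested. Every called value that could be compared within a second index kept its sign there. Shares by raw counts, not corrected for length, moved beyond the spread for 8 of 9 shares followed, for example 59.3% for Tubb5 in NSC and 38.5% for Tubb4a in Neuron total mRNA. Depth limits Tubb6 in ENB, with 2 to 52 raw counts per library.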
